A study of Homo sapiens with 20 samples.

Results

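RUNX1 binding was examined around 9 genes of megakaryocytes and platelets, ITGA2B, ITGB3, PF4, PPBP, GP9, SELP, THBS1, MYL9 and ALOX12, in THP-1 cells, a human line established from a monocytic leukemia. The sites described are all RUNX1 ChIP-seq peaks within 50 kb of the RefSeq span of one of these genes, a rule that uses position only. It gave 12 of the 26642 peaks in the count table, and these lie near 4 of the 9 genes: 3 near ITGA2B, 5 at ITGB3, 1 near GP9 and 3 near ALOX12. ChIP-seq sequences the DNA that an antibody pulls down with a bound protein, so the number of reads in a peak reports how much DNA of that site came down with RUNX1. One THP-1 line carried a doxycycline-inducible shRNA against PU.1 (knockdown, 6 RUNX1 libraries) and the other a doxycycline-inducible scramble shRNA (control, 6 RUNX1 libraries), and both received doxycycline before harvest. The labels put 3 controls and 2 knockdowns in batch 1 and the other 3 controls and 4 knockdowns in batch 2. The 8 IgG libraries of the series were not analysed here. The methods describe replicates of the cell lines with their own immunoprecipitation and library preparation, so the p-values measure the spread between such preparations. Whether either line is a single clone is not given in the sources used here. No RNA was measured in these libraries, so the PU.1 level, the monocytic identity of the cells and the transcript levels of the 9 genes could not be checked here.

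Megakaryocytes are the bone marrow cells that shed platelets, and their maturation needs RUNX1, a DNA-binding factor whose inherited loss causes a familial platelet disorder with a predisposition to myeloid leukemia. PU.1 is an ETS-family factor that drives monocytes, macrophages and B cells, and its level falls as progenitors take the megakaryocyte and erythroid path. PU.1 and RUNX1 bind neighbouring sites at many myeloid enhancers. ITGA2B and ITGB3 encode the subunits of the platelet fibrinogen receptor, GP9 encodes a subunit of the von Willebrand factor receptor complex and SELP the adhesion receptor P-selectin. PF4, PPBP and THBS1 encode chemokines and an adhesive protein stored in alpha granules. MYL9 encodes a regulatory light chain of non-muscle myosin, and ALOX12 a lipoxygenase that makes signalling lipids from arachidonic acid.

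RefSeq promoter windows (GRCh38.p14, from 250 bases before to 50 after the start) were at hand for 6 of the 9 genes, ITGA2B, PPBP, GP9, SELP, THBS1 and ALOX12. None of these 6 windows overlapped a RUNX1 peak, whereas 8302 of all 34943 windows (23.8%) did. The RUNX letters TGTGGT or TGCGGT, on either strand, stood in 3 of the 6 windows, against 19.6% of all windows. The 250 bases before the start of those 3 genes are printed 5′ to 3′ on the strand of the gene because they hold RUNX letters under no peak. The GP9 start used for its window lies inside the RefSeq span from which distances were counted. Capitals mark the RUNX letters and, in PPBP, also the PU.1 letters GAGGAAGT, which 2.59% of all windows hold and 1 of the 6 held. The PU.1 letters of PPBP include the ETS letters AGGAAG, and the ETS letters AGGAAG or CGGAAG stood in 6 of the 6 windows and in 46.9% of all windows. The GATA letters AGATAA or TGATAA stood in 3 of the 6 and in 16.3% of all windows. A match is a run of letters and not a measured site.
SELP promoter, chr1:169630125-169630374, minus strand: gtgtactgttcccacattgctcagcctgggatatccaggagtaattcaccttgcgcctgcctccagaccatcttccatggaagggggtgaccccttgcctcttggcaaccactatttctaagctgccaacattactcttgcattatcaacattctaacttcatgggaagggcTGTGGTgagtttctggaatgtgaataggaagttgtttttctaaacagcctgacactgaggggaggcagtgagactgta
GP9 promoter, chr3:129060529-129060778, plus strand: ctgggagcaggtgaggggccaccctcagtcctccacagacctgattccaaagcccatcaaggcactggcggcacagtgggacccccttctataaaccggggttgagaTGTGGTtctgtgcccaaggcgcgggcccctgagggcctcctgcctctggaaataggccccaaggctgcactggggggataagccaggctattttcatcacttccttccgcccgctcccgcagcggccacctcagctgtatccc
PPBP promoter, chr4:73988191-73988440, minus strand: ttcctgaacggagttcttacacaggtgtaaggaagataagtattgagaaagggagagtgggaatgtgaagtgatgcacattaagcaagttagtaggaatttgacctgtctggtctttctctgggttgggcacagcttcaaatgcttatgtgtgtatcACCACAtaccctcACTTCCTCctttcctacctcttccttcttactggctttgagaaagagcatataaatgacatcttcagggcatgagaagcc

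The gained peak on the far side of ALOX12 (chr17:7017651-7018635, described further on) covers the MIR497 hairpin and part of the MIR195 hairpin, 2 microRNA genes read from the minus strand within the long non-coding gene MIR497HG. Their sequences are printed because they are the stretches of a changed peak whose letters were at hand. In the mature forms capitals mark the seed, bases 2 to 8, which both share as AGCAGCA. In the MIR497 hairpin capitals mark RUNX letters on either strand, of which it holds 3 matches. The hairpins were searched after the values of the peak had been seen. Of 1554 RefSeq hairpins, 6.56% held such letters and 1 (0.0644%), MIR497 itself, held 3 or more matches. The MIR195 hairpin held 0. ACCACA is UGUGGU read from the other strand, so the paired arms of a hairpin can each give a match. The 3 matches are therefore not independent.
hsa-miR-195-5p, chr17:7017667-7017687, minus strand: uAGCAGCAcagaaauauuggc
hsa-miR-497-5p, chr17:7017979-7017999, minus strand: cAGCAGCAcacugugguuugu
MIR497 hairpin, chr17:7017911-7018022, minus strand: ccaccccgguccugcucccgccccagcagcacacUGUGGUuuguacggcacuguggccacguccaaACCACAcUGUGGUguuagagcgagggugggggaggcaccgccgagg

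The control libraries held 630247 to 1199004 reads in peaks and the knockdown libraries 938745 to 1719840. Counts were divided by DESeq2 size factors, and the values given from here on are such normalised counts unless a sentence names another scale. Fold changes are knockdown over control with batch in the model, and log2 fold changes carry their standard error. A peak was called where the DESeq2 p-value, adjusted by the Benjamini-Hochberg method over all 26642 peaks, was under 0.05 and the fold change exceeded 1.1 in either direction. A called peak is gained where the knockdown was higher and lost where it was lower.

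Of the 12 peaks, 5 were gained and 1 was lost. Among all peaks 42.0% were called, 21.3% gained and 20.7% lost. The median log2 fold change of the 12 was 0.17, and that of all peaks was -0.025. The gains lay at ITGB3, where 4 of 5 peaks were called, and beside ALOX12, where 1 of 3 was, and the loss lay near ITGA2B. The control and knockdown libraries did not overlap at 4 of the 12 peaks, compared with 23.3% of all peaks. Of the 9 genes, 4 (44.4%) had a peak within 50 kb, compared with 80.8% of 20056 protein-coding genes. A peak lay inside the span of 1 of 9 (11.1%), compared with 50.5%. The 42 other platelet genes listed further on had shares of 78.6% and 59.5%. The low shares of the 9 were thus not seen in that list. PF4 and PPBP, both without a peak, are neighbours whose windows overlap. With edgeR, 5 of the 12 were gained and 2 lost, and 47.1% of all peaks were called, 24.1% gained and 22.9% lost. The plot of counts by library gives all 12 peaks.

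**Figure D1:**
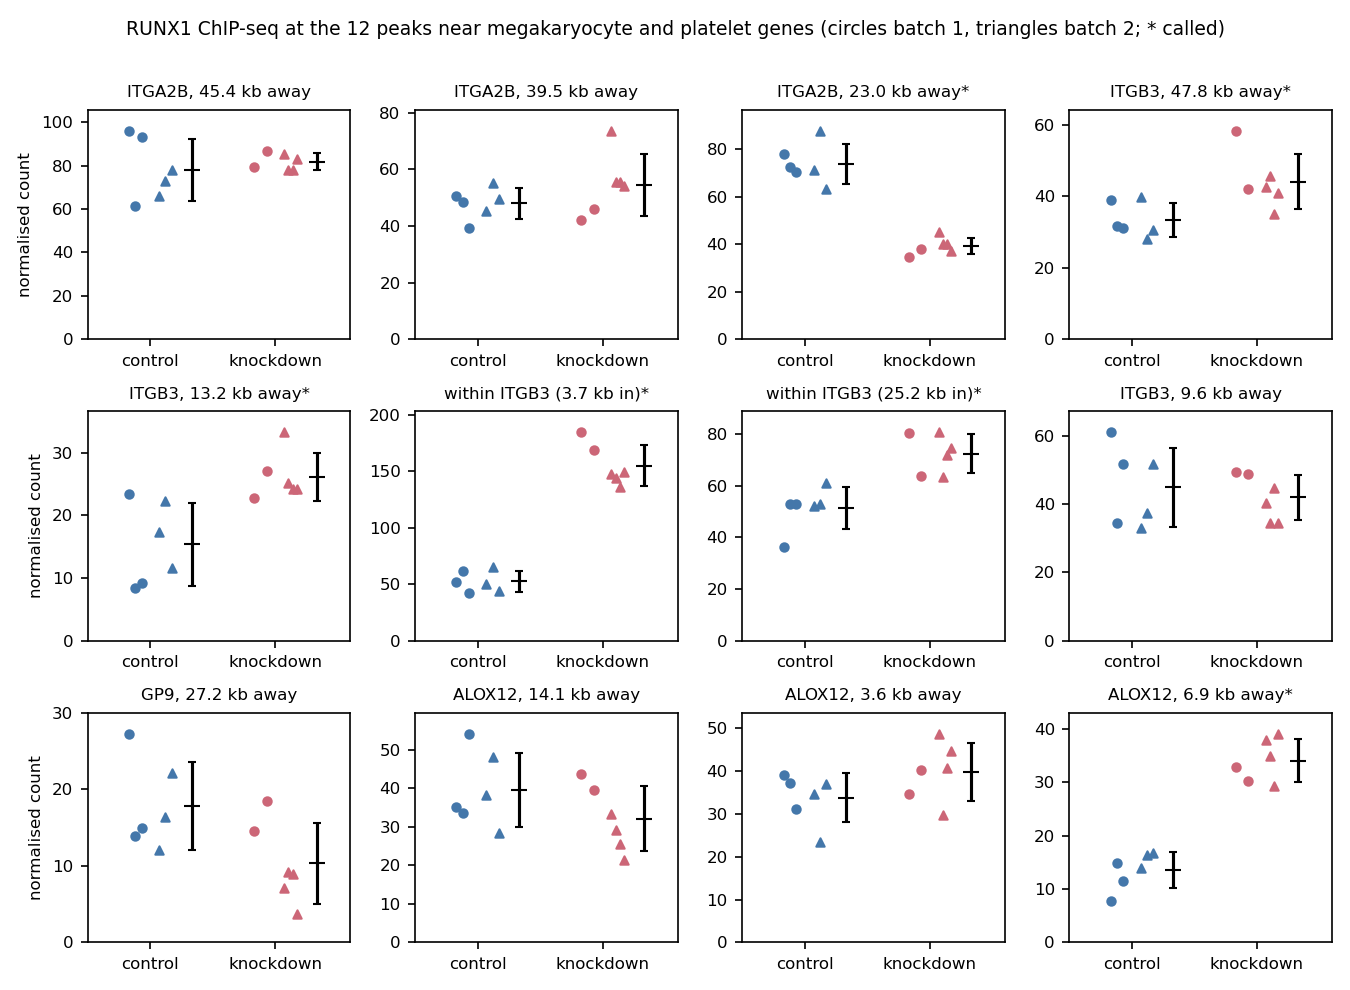
Normalised RUNX1 ChIP-seq counts (y axis, linear from 0) at the 12 peaks in 6 control and 6 knockdown libraries (x axis), circles for batch 1 and triangles for batch 2, with the mean and SD of each group as a black bar and a star in the title of called peaks. The clearest separation is at the peak 3.7 kb inside ITGB3, where the controls sit at 42.6 to 65.7 and the knockdowns at 136 to 184.

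ITGB3, the beta3 integrin subunit (chr17:47253827-47313743), carried the strongest change of the 12, at the peak chr17:47257563-47258913. This peak is 1351 bp wide and starts 3736 bp inside the low-coordinate end of the gene span. Exon or intron was not assigned, because the annotation used holds gene spans only. In batch 1 the controls had 52.0, 61.4 and 42.6 and the knockdowns 184 and 169. In batch 2 the controls had 50.3, 65.7 and 44.2 and the knockdowns 147, 144, 136 and 149. Every knockdown library was therefore above every control library, by a wide margin. The mean rose from 52.7 ± 9.20 (SD, n = 6) to 155 ± 18.0 (SD, n = 6), a fold change of 2.99 with a 95% interval of 2.50 to 3.57. The log2 fold change was 1.58 ± 0.13 (adjusted p = 2.5e-30, DESeq2), and 2.46% of all peaks had a higher one. It was called in each batch alone, at 1.77 ± 0.25 in batch 1 (adjusted p = 2.4e-09, DESeq2) and 1.43 ± 0.18 in batch 2 (adjusted p = 2.5e-12, DESeq2), and the difference between the batches did not pass the test (interaction, adjusted p = 0.9999, DESeq2).

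A further gained peak lay deeper in ITGB3, at chr17:47279025-47279947, which starts 25198 bp inside the span and also overlaps the uncharacterised gene LOC107985029. Its batch 1 controls had 36.4, 53.0 and 53.0 against 80.4 and 63.9 in the knockdowns. Its batch 2 controls had 52.0, 52.8 and 61.1 against 80.8, 63.4, 72.0 and 74.5. The groups did not overlap, although the highest control and the lowest knockdown were close. The mean rose from 51.4 ± 8.09 (SD, n = 6) to 72.5 ± 7.64 (SD, n = 6), with a log2 fold change of 0.46 ± 0.15 (adjusted p = 0.00717, DESeq2). The call was lost without knockdown replicate 1 (adjusted p = 0.0501, DESeq2). Per kilobase of peak, the mean level was 55.7 here and 39.0 at the first peak in control cells, and 78.5 here and 115 at the first peak in knockdown cells.

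Outside the span, the peak chr17:47240024-47240606 lies 13221 bp from ITGB3 in no RefSeq gene. The batch 1 controls had 23.4, 8.38 and 9.22 there, with 22.8 and 27.0 in the knockdowns, and the batch 2 controls had 17.3, 22.3 and 11.6, with 33.3, 25.1, 24.2 and 24.2. The groups overlapped only at the highest control and the lowest knockdown, both of batch 1. The mean rose from 15.4 ± 6.59 (SD, n = 6) to 26.1 ± 3.76 (SD, n = 6), with a log2 fold change of 0.76 ± 0.27 (adjusted p = 0.0122, DESeq2). The raw counts behind it, not adjusted for library depth, were 8 to 19 in the controls and 25 to 41 in the knockdowns. In neither batch alone was it called (adjusted p = 0.284 in batch 1 and 0.183 in batch 2, DESeq2). The call was lost without knockdown replicate 2 (adjusted p = 0.0573, DESeq2) or control replicate 6 (adjusted p = 0.0635, DESeq2).

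The peak chr17:47203910-47205992 is the most distant from ITGB3, at 47835 bp, and lies within MYL4, which encodes an atrial myosin light chain. The batch 1 controls had 39.0, 31.6 and 31.1 and the knockdowns 58.4 and 42.1. In batch 2 the controls had 39.9, 28.1 and 30.5 and the knockdowns 42.8, 45.6, 35.1 and 41.0. The groups overlapped, with the lowest knockdown below the highest control in batch 2. The mean rose from 33.4 ± 4.85 (SD, n = 6) to 44.2 ± 7.81 (SD, n = 6), with a log2 fold change of 0.45 ± 0.19 (adjusted p = 0.0408, DESeq2). This call was lost when any 1 of 8 libraries was left out, control replicates 2, 3, 5 and 6 and knockdown replicates 1, 3, 4 and 6, and also with no batch covariate (adjusted p = 0.0512, DESeq2) and after centring on the 10 Mb bin (adjusted p = 0.0677). Over all its alternatives the adjusted p ran from 0.0181 to 0.253.

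On the other side of ITGB3, 9646 bp away, the peak chr17:47323389-47324668 at EFCAB13 was not called. The controls had 44.9 ± 11.5 (SD, n = 6) and the knockdowns 42.0 ± 6.68 (SD, n = 6), with a log2 fold change of -0.05 ± 0.18 (adjusted p = 0.852, DESeq2) and a 95% interval of -0.40 to 0.30. The sign of this value changed with the filter on low counts and with 2 of the controls. The plot of change against position shows the gains on the low-coordinate side and inside the gene.

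**Figure D2:**
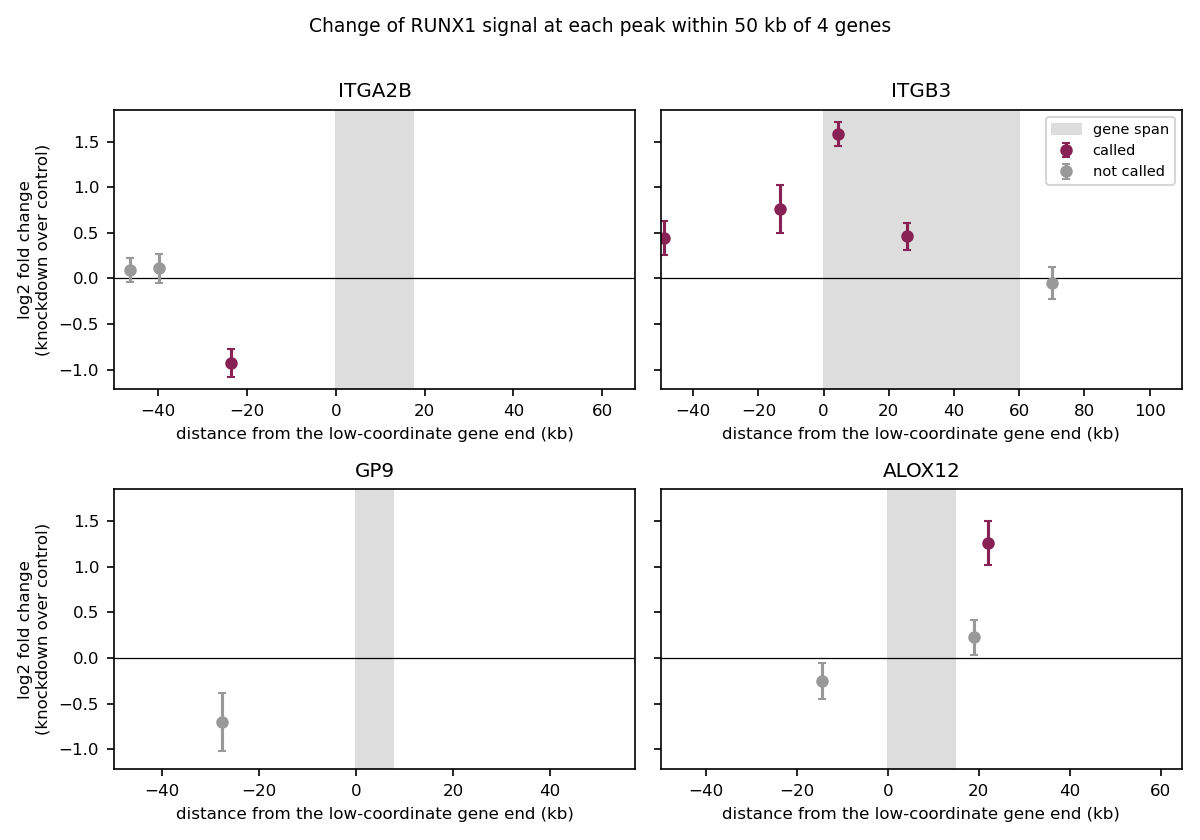
Log2 fold change of each of the 12 peaks (y axis, with standard error bars) against distance in kb from the low-coordinate end of ITGA2B, ITGB3, GP9 and ALOX12 (x axis), with the gene span shaded grey and called peaks in purple. The ITGB3 panel has 4 gained peaks, of which the one just inside the span reaches 1.58, and the ITGA2B panel has 1 lost peak at -0.93.

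ITGA2B, which encodes the alpha subunit that pairs with the product of ITGB3, lies on the same chromosome (chr17:44372181-44389649, minus strand) and had no peak inside its span. The peak chr17:44347822-44349205, 22976 bp from ITGA2B, lies within GRN, which encodes the secreted growth factor precursor progranulin. In batch 1 the controls had 78.0, 72.6 and 70.3 and the knockdowns 34.7 and 38.2. In batch 2 the controls had 71.1, 87.9 and 63.2 and the knockdowns 45.1, 40.3, 40.2 and 37.3. Every knockdown library was below every control library. The mean fell from 73.8 ± 8.37 (SD, n = 6) to 39.3 ± 3.53 (SD, n = 6), which is 1.90-fold lower, with a log2 fold change of -0.93 ± 0.15 (adjusted p = 1.7e-08, DESeq2). Among all peaks 9.15% had a lower log2 fold change. It was called in batch 1 (-0.99, adjusted p = 0.0150, DESeq2) and in batch 2 (-0.87, adjusted p = 0.00073, DESeq2).

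The other peaks near ITGA2B were not called. The peak 39507 bp away, chr17:44331969-44332674, overlapped no RefSeq gene and had 48.0 ± 5.41 (SD, n = 6) in the controls and 54.5 ± 10.9 (SD, n = 6) in the knockdowns. Its log2 fold change was 0.11 ± 0.16 (adjusted p = 0.613, DESeq2). The peak 45363 bp away, chr17:44324813-44326818, overlapped the promoter window of SLC25A39, which encodes a mitochondrial carrier. There the controls had 77.9 ± 14.2 (SD, n = 6) and the knockdowns 81.8 ± 3.94 (SD, n = 6), with a log2 fold change of 0.09 ± 0.13 (adjusted p = 0.623, DESeq2) and a 95% interval of -0.17 to 0.35. The genes of both integrin subunits thus had called peaks of opposite direction within 50 kb, the loss in the neighbouring gene GRN and the largest gain inside ITGB3.

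The region downstream of ALOX12 (chr17:6996049-7010754, plus strand) gained RUNX1 at the microRNA genes whose sequences are given above. The peak chr17:7017651-7018635 lies 6897 bp from ALOX12. The batch 1 controls had 7.80, 14.9 and 11.5 and the knockdowns 32.9 and 30.3. In batch 2 the controls had 13.9, 16.4 and 16.9 and the knockdowns 38.0, 35.0, 29.3 and 39.1. The groups did not overlap, and the highest control, 16.9, lay well below the lowest knockdown, 29.3. The mean rose from 13.6 ± 3.41 (SD, n = 6) to 34.1 ± 4.01 (SD, n = 6), a fold change of 2.40 with a 95% interval of 1.72 to 3.35. The log2 fold change was 1.26 ± 0.25 (adjusted p = 2.4e-06, DESeq2), and 5.24% of all peaks had a higher one. It was called in batch 1 (1.46, adjusted p = 0.0352, DESeq2) and in batch 2 (1.14, adjusted p = 0.00524, DESeq2), on raw counts of 6 to 16 in the controls and 32 to 53 in the knockdowns.

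The peak between this site and ALOX12, chr17:7014402-7015736, lies at the neighbouring genes RNASEK and BACC1, 3648 bp from ALOX12. It had 33.7 ± 5.71 (SD, n = 6) in the controls and 39.8 ± 6.81 (SD, n = 6) in the knockdowns, with a log2 fold change of 0.23 ± 0.19 (adjusted p = 0.349, DESeq2). On the upstream side, 14141 bp away, the peak chr17:6981246-6981908 had 39.6 ± 9.67 (SD, n = 6) and 32.1 ± 8.49 (SD, n = 6), with a log2 fold change of -0.25 ± 0.20 (adjusted p = 0.323, DESeq2). Neither was called.

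GP9, the glycoprotein IX gene (chr3:129054845-129062406, plus strand), had a single peak, chr3:129026832-129027646, 27199 bp upstream of that span and within EFCC1. It lies further from the start used for the promoter window. In batch 1 the controls had 27.3, 14.0 and 15.0 and the knockdowns 14.6 and 18.4, values that overlap. In batch 2 the controls had 12.1, 16.4 and 22.1 and the knockdowns 7.13, 9.25, 8.92 and 3.73, all below the controls. Over both batches the means were 17.8 ± 5.75 (SD, n = 6) and 10.3 ± 5.31 (SD, n = 6), with a log2 fold change of -0.71 ± 0.32 that was not called (adjusted p = 0.0612, DESeq2). It was called in batch 2 alone (-1.22, adjusted p = 0.0432, DESeq2) and not in batch 1 (-0.14, adjusted p = 0.917, DESeq2). In batch 2 the call was lost without control replicate 5 or 6 or any 1 of the 4 knockdowns. The difference between the batches was -1.07 on the log2 scale and did not pass the test (interaction, adjusted p = 0.9999 with DESeq2 and 0.924 with edgeR). Over both batches edgeR called the peak as lost (adjusted p = 0.0451), and DESeq2 did so without control replicate 2 or 3 or knockdown replicate 2 (adjusted p = 0.0301, 0.0375 and 0.0381).

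Batch by batch, 2 of the 12 peaks were gained and 1 was lost in batch 1, where 5.38% of all peaks were gained and 6.61% lost. In batch 2, 2 were gained and 2 lost, where 12.8% of all peaks were gained and 13.1% lost. The peaks called in both were the one 3.7 kb inside ITGB3, the one in GRN near ITGA2B and the one at MIR497HG. The other gained peaks at ITGB3 were called in neither batch alone. With any 1 library of batch 1 left out, that batch alone called only the ITGB3 peak. The estimates of the batches had the same sign at 9 of the 12 peaks, and the share among all peaks is not given here. They also had the same sign at 6 of the 6 called peaks. Those peaks were called from both batches together, so this agreement was largely set by the selection. The interaction of knockdown and batch passed at 0 of the 12 peaks with DESeq2, adjusted or at an unadjusted p under 0.05, and at 0 adjusted and 1 unadjusted, the GP9 peak, with edgeR. Among all peaks 2.51% had an unadjusted DESeq2 interaction p under 0.05 and 0 passed after adjustment. The edgeR share among all peaks is not given here, so the edgeR result at the GP9 peak has no background beside it. In fixed 10 Mb bins of the genome, the median log2 fold change was 0.041 over the 259 peaks of the bin that holds the peaks of both ITGA2B and ITGB3, 0.084 over the 164 of the GP9 bin and 0.022 over the 135 of the ALOX12 bin.

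**Figure D3:**
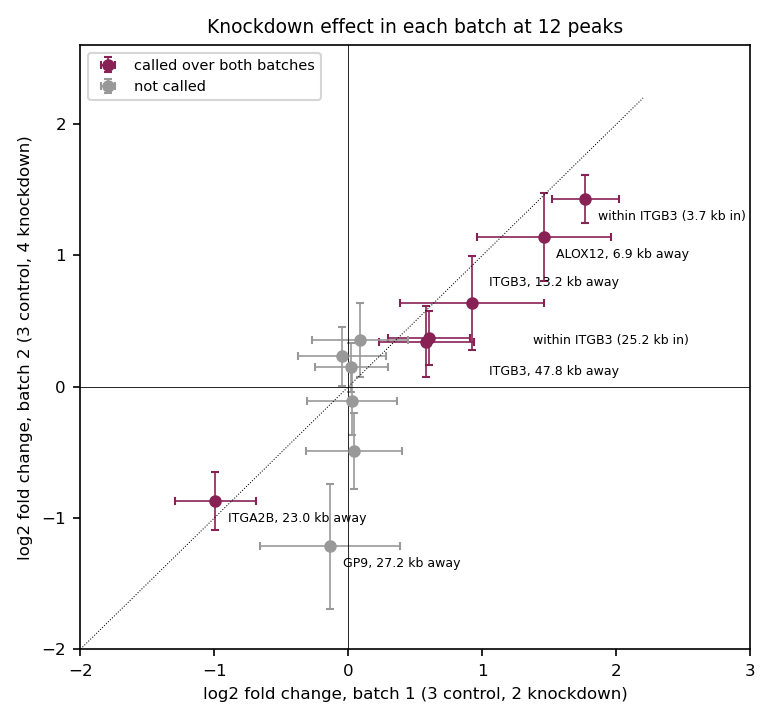
Log2 fold change of the 12 peaks in batch 1 (x axis) against batch 2 (y axis), each with its standard error, with the dotted line marking equal effects and peaks called over both batches in purple. The ITGB3 peak 3.7 kb inside the gene lies at 1.77 and 1.43, and the GP9 peak lies at -0.14 and -1.22.

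The remaining 5 genes had no peak within 50 kb. MYL9 came closest, with a peak 50821 bp away, just outside the limit, at chr20:36489958-36490698 within DLGAP4. It had 10.1 ± 4.54 (SD, n = 6) in the controls and 18.2 ± 3.52 (SD, n = 6) in the knockdowns, with a log2 fold change of 0.85 ± 0.31, on raw counts of 5 to 14 and 15 to 35. The normalised counts of the groups overlapped, with a highest control of 18.2 and a lowest knockdown of 13.7. Values of peaks beyond the limit are given here without a test. The members just inside the limit are those 47835 bp from ITGB3 and 45363 bp from ITGA2B, given above. The chemokine genes PPBP and PF4, neighbours on chromosome 4, shared 1 nearest peak, chr4:74098817-74099787 at the chemokine gene CXCL2, 110627 and 116693 bp away. That peak had a log2 fold change of 0.45 ± 0.27. The nearest peak to THBS1, thrombospondin 1, lay 149192 bp away and had a log2 fold change of 0.39 ± 0.26. SELP was the most isolated, with its nearest peak 164329 bp away and a log2 fold change of -0.04 ± 0.23 there. A site below the authors' peak threshold would not be in the table, so these distances do not show that RUNX1 was absent.

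A list of 42 other platelet genes, taken from textbook roles, gives the surroundings. The 9 without a RUNX1 peak within 50 kb were the receptor genes GP5, ITGA2 and F2R, the granule and secreted protein genes F13A1, SPARC and PF4V1, the signalling and enzyme genes PTGS1 and GNG11, and MYH10 of the cytoskeleton. The other 33 had at least 1 such peak, and 68 of their 156 peaks (43.6%) were called, 41 gained and 27 lost, with a median log2 fold change of 0.088. The called share is close to the 42.0% of all peaks. None of these peaks is one of the 12. Surface receptor genes had 10 gained and 10 lost of 36 peaks, and signalling and enzyme genes 10 gained and 9 lost of 48. Granule and secreted protein genes had 15 gained and 4 lost of 45, with a median log2 fold change of 0.20, and cytoskeleton genes 6 gained and 4 lost of 28, with a median of 0.23. With each peak centred on the median of its 10 Mb bin, the granule and secreted group had 9 gained and 5 lost, the signalling and enzyme group 12 gained and 5 lost, the receptor group 9 gained and 8 lost, and the cytoskeleton group the counts already given. 1 peak is counted under both CD9 and VWF. Singled out after the values were seen, PDGFB of the granule and secreted group had 6 of 7 peaks gained. PDGFB encodes the B chain of platelet-derived growth factor. Its 10 Mb bin had a median log2 fold change of 0.20, and 3 of the 7 were gained after centring on that bin. SRGN, also singled out afterwards, had 13 of the 45 granule and secreted peaks, 1 gained and 2 lost. Its bin had a median of 0.18. MYH9 had 13 of the 28 cytoskeleton peaks, and the bin of its peak named below had a median of 0.20. The group medians given above were not centred.

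Near F2RL3, which encodes a thrombin receptor of platelets, the peak chr19:16876495-16878194 in the neighbouring gene SIN3B rose from 42.5 ± 8.95 (SD, n = 6) to 190 ± 18.9 (SD, n = 6), a log2 fold change of 2.14 ± 0.14 (adjusted p = 2.2e-49, DESeq2). A peak overlapping F2RL3 itself, chr19:16888427-16889785, rose from 28.9 ± 9.49 (SD, n = 6) to 71.4 ± 11.6 (SD, n = 6), by 1.37 ± 0.19 on the log2 scale (adjusted p = 6.9e-12, DESeq2). Of the 4 peaks within 50 kb of F2RL3, 3 were gained and 1 was lost. MYH9, the heavy chain of non-muscle myosin whose mutation causes giant platelets, gained at chr22:36328851-36329895, by 1.22 ± 0.16 on the log2 scale (adjusted p = 3.3e-12, DESeq2). Its 13 peaks within 50 kb had 5 gained and 1 lost. CD36, a scavenger receptor that monocytes also carry, lost signal inside its span at chr7:80638002-80638874, with a log2 fold change of -1.53 ± 0.19 (adjusted p = 5.4e-14, DESeq2). Of the 2 peaks within 50 kb of CD36, 1 was gained and 1 was lost. TUBB1, the platelet beta tubulin gene, had a lost peak 7.90 kb away at chr20:59007605-59008534, with a log2 fold change of -1.39 ± 0.21 (adjusted p = 3.3e-10, DESeq2). The plot of the list shows gains and losses in every group.

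**Figure D4:**
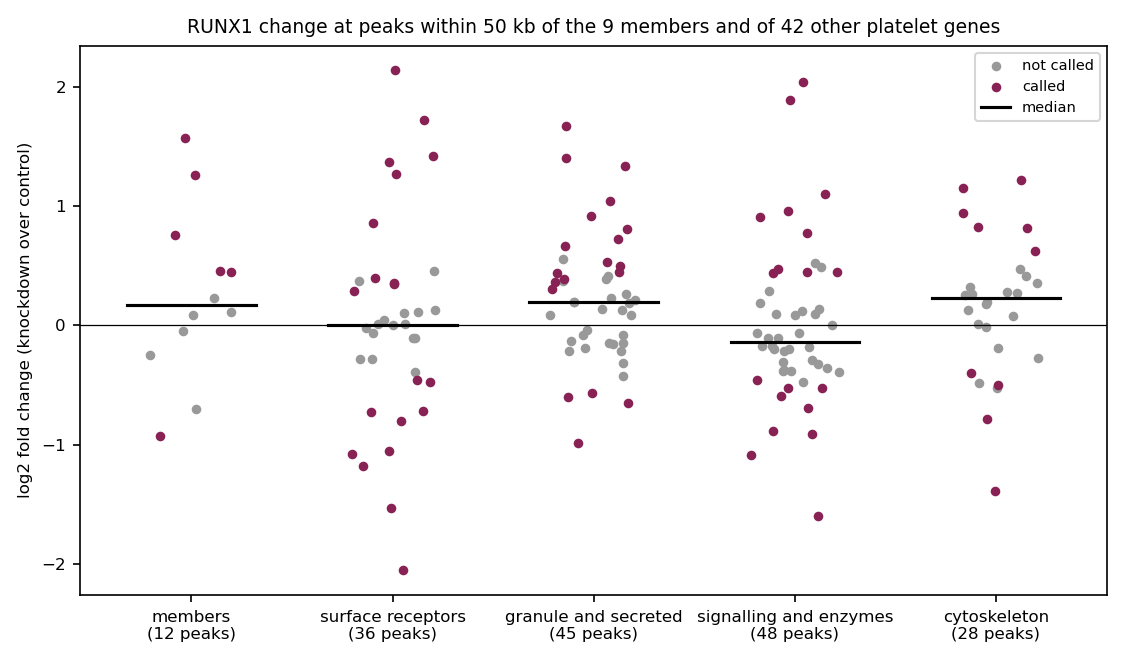
Log2 fold change (y axis) of each peak within 50 kb of the 9 genes and of 4 groups of other platelet genes (x axis), with called peaks in purple and the group median as a black line. The 12 peaks have a median of 0.17, and the 4 groups have medians of 0.006, 0.20, -0.14 and 0.23 from left to right.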

How the data were processed

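RUNX1 ChIP-seq was done in THP-1 cells with an inducible PU.1 or scramble shRNA. The deposited table holds raw read counts per peak and library, made by the authors with Bowtie2, SAMtools, MACS2, bedtools and featureCounts (the submitters' processing notes, no versions). Per the methods, the authors called peaks per condition and batch, kept those reproducible between batches and merged both conditions, so a site outside these sets has no row. The peak width in base pairs is a further deposited column. The methods name a mouse build, whereas the labels list GRCh38 too and the coordinates match human genes, so GRCh38 was used. The table holds no sequence, and peak sequences were not analysed here.

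Counts were tested with DESeq2 1.42.0 in R 4.3.3, with batch as a covariate, all 12 libraries and all 26642 peaks, Benjamini-Hochberg adjustment, an adjusted p limit of 0.05 and a fold change above 1.1. Each batch was also fitted alone, and an interaction term compared the batches. edgeR 4.0.16 quasi-likelihood tests were an alternative. DESeq2 stands as the main test because it is the test of the study. On simulated counts for the comparison over both batches, with 200 of 26642 peaks changed by 1 on the log2 scale, DESeq2 recovered 146 with 5 false calls. The simulation had no batch effect and far fewer changed peaks than the 42.0% called in the data. Its rates therefore do not carry over to the calls given here.

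Gene spans, promoters and microRNAs came from RefSeq GRCh38.p14, and distance was counted from the span. The 9 genes, the 42-gene list and the tests were chosen with earlier results of these data known. All 9 genes are named, with values for each called peak and for the nearest peak of a gene without one. From the list, the rule names the 3 gained and 3 lost peaks of smallest adjusted p, of which 1 is not reported here. Within groups, libraries differed by more than counting noise (chi-square per degree of freedom 1.29 to 2.24), so none looked like another library sequenced again. This check cannot tell whether libraries shared a culture or chromatin. Alternatives covered scaling, filtering, batch, window, centring on the median of fixed 10 Mb bins, the replicate block and each library left out.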

Additional observations from a re-analysis of the deposited data

Results flagged for a closer look

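At the peak 25198 bp inside ITGB3 (chr17:47279025-47279947), control replicate 1 had a normalised count of 36.4, below the 52.0 to 61.1 of the other 5 controls. Its gap to the nearest control was 0.633 of the range of the group, above the 95% limit of Dixon's test for 6 libraries. Across the 24 groups of 6 libraries examined, chance alone flags about 1 in 20, or 1.2 in all, and 1 was found. The peak was also called as gained without that library.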

How the results depend on the processing

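Over both batches, the gains 3.7 kb inside ITGB3 and at MIR497HG and the loss in GRN near ITGA2B were called under every alternative that tested them. The MIR497HG peak did not pass the filter of at least 10 counts. The 6 calls among 12 peaks within 50 kb stood against 3 of 5 peaks within 10 kb and 16 of 28 within 100 kb. Over all peaks, fits of both batches without 1 library gave 9741 to 10764 calls, against 11185 with all libraries. The matching counts over all peaks within a batch are not given here. Among the 12 peaks, leaving out 1 library gave 4 to 6 calls over both batches, 4 without knockdown replicate 1 or control replicate 6. It gave 1 call in batch 1 alone, against 3 with all libraries, where a lone knockdown is assumed to vary like the other libraries, and 3 to 4 in batch 2 alone. Over all peaks the 11185 calls became 5877 with at least 10 counts, where 18255 peaks were tested, and the 68 list calls of 156 peaks stood against 33 of 84 within 10 kb. The gained peak 13221 bp from ITGB3 lost its call without knockdown replicate 2 or control replicate 6, and the one 25198 bp inside ITGB3 without knockdown replicate 1. Both also lost it with the replicate block described below (adjusted p = 0.175 and 0.0908, DESeq2). The peak at EFCAB13 changed sign to 0.019 with at least 10 counts and when control replicate 1 or 6 was left out, with leave-one-out values from -0.15 to 0.062. The GP9 peak was called with edgeR, with batch left out of the model and after centring on the 10 Mb bin, with adjusted p over its alternatives of 0.0301 to 0.263. Other scalings kept 5 gained and 1 lost peak, and edgeR gave 5 gained and 2 lost. Peaks with control counts near 10 resolve only large changes.

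The control and knockdown libraries share replicate numbers, but no label says that a number marks a shared culture or day, number 3 falls in different batches, and deviations of same-numbered libraries correlated at -0.064 to 0.014, with the own number the best partner for 1 of 6. Fitted as a replicate block, the numbers gave 3 calls among the 12 peaks, 36 in the list and 7289 over all peaks.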
